A study of Mus musculus with 18 samples.

Results

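Interferon-stimulated genes are the genes a cell switches on when interferon reaches it, and 46 genes of the response were followed here, tumor by tumor, in a mouse model of small cell lung cancer (SCLC). The members were a list of symbols: 4 receptor chains, 8 transcription factors, 5 nucleic acid sensors with their adaptor, 19 antiviral effectors, 6 genes of ISG15 conjugation, ubiquitin transfer and ADP-ribosylation, and 4 guanylate-binding proteins. All 46 were found among the 46078 genes of the RNA-seq table and all 46 were among the 15514 genes tested. For 44 of them the ATAC-seq table held a peak whose middle lay within 1000 bp of an annotated transcript start, 55 peaks in all among 111664. Such a peak is called a start-site peak. Oas3 and Ifi44 had none.

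Tumors had been induced with adenoviral Cre placed in the lungs of mice aged 8 weeks, and cells were collected 28 weeks later from 3 independent animals per genotype. TKO animals carry conditional alleles of Rb1, p53 (Trp53) and a retinoblastoma family gene, named Rbl1 in the sample labels and Rbl2 in the text of the study, and all 3 genotypes share this triple deletion. TKO;Carm1 animals also carry a conditional allele of Carm1, which encodes an arginine methyltransferase (CARM1 knockout tumors). TKO;NfibR388K animals carry a germline change of the NFIB arginine that CARM1 methylates to lysine, so every cell of the animal has it (NFIB mutant tumors). Cre acts in any lung cell that takes up the virus, and the methods describe sorting for a tdTomato reporter. The text of the study names tumor biopsies, sorted cells and cancer cell lines in different places, which leaves the source unclear. One library per animal and assay gave 3 RNA-seq and 3 ATAC-seq libraries per genotype, numbered as in the table headers. The headers name the columns C, KO and N, which no label spells out, and they were read as TKO, CARM1 knockout and NFIB mutant.

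Type I interferons bind a receptor made of IFNAR1 and IFNAR2, and interferon gamma binds IFNGR1 and IFNGR2. The kinases bound to these chains phosphorylate STAT proteins, and a complex that holds STAT2 and IRF9 binds the interferon-stimulated response element (ISRE) in the promoters of its targets. The products include sensors of viral nucleic acid such as RIG-I and MDA5, enzymes that degrade viral RNA, and ISG15, a ubiquitin-like protein. SCLC cells of the neuroendocrine type are known for low expression of genes of innate immunity and antigen presentation.

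The RNA-seq libraries held between 15848866 and 20915057 counts on genes and the ATAC-seq libraries between 26917178 and 47653979 counts on peaks. A limit of 3 counts in a library stood for 0.131 to 0.203 CPM (counts per 1000000 counts of the library, scaled with edgeR's TMM factors) in RNA-seq, and this limit covers counting error only. Carm1 itself read 97.7, 103 and 44.5 CPM in TKO tumors 1, 2 and 3, 63.4, 79.1 and 50.8 CPM in CARM1 knockout tumors and 100.4, 104 and 102 CPM in NFIB mutant tumors. The counts cover the whole gene, not the deleted part alone, so they are no check of the knockout, and a changed codon cannot be seen in counts either. Nfib read between 420.2 and 579.9 CPM in TKO and between 74.5 and 216 CPM in the mutant libraries.

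Before the results, the identity of the cells has to be given. Of 12 neuroendocrine markers, all 12 reached 1 CPM in each TKO library, 11 did in CARM1 knockout 3 and 2 to 5 did in the other mutant libraries. The summed level of these markers was between 1691 and 4202 CPM in the TKO libraries, 1991 CPM in library 3 of CARM1 knockout and 33.5 to 189 CPM in the remaining mutant libraries. CARM1 knockout 3 thus stood apart from the other libraries of its genotype, and of the other mutant libraries none carried a neuroendocrine profile at the level of TKO. NFIB mutant 1 held 2055 CPM of 10 lung epithelium markers, mostly Sftpb, where TKO held 285 to 629 CPM and the other mutant libraries 1.83 to 267 CPM. Fibroblast markers, 6 genes led by collagens, summed to 11.1 to 63.4 CPM in TKO and 9479 to 25795 CPM in the mutants. In bulk libraries such as these, a change in the share of a cell type cannot be told apart from a change in the RNA each cell holds.

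Most of the list rose in both mutants. In edgeR's quasi-likelihood test, adjusted by Benjamini and Hochberg over all genes, where a call needed an adjusted p under 0.1 and a log2 fold change of at least 0.8 in either direction, 37 members were higher in CARM1 knockout than in TKO tumors and 0 were lower. Of all genes tested 20.5% were called higher and 18.3% lower in that comparison. In NFIB mutant tumors 40 members were higher and 0 lower, where 22.3% and 23.5% of all genes were. Over the 46 members the median log2 fold change reached 3.04 for CARM1 knockout and 3.52 for NFIB mutant tumors, against -0.03 and -0.05 over all genes tested. Both comparisons use the same 3 TKO libraries, so they are not independent of each other. Every mutant library lay above every TKO library for 36 members, as it did for 22.3% of all genes tested, for 0 members every one lay below (23.3% of all genes), and for the other 10 the libraries overlapped. For Oas2, Oas3 and Ifi44 the separation rests on few counts, 9 against 7, 8 against 4 and 6 against 5 in the nearest libraries. For Irf2, Mx2, Ifi35 and Trim25 it rests on the scaling. There a mutant library held fewer counts than a TKO library (348 against 430, 19 against 20, 326 against 378 and 1286 against 1452). Stat2, Irf2 and Ifit2 were called in NFIB mutant tumors alone, and the difference between the mutants was not called for any of them. Without CARM1 knockout 3, the library that stood apart, the count for that mutant was 37 again. The 6 members called in neither mutant were Irf3, Irf8, Mx1, Cmpk2, Samhd1 and Adar.

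The level of the whole list can be followed from library to library. Its median was 2.28, 1.49 and 3.77 CPM in TKO 1, 2 and 3, 71.7, 27.7 and 36.6 CPM in CARM1 knockout tumors, and 16, 82.2 and 75.3 CPM in NFIB mutant tumors. The median over all genes tested stayed between 20.4 and 24.0 CPM in these 9 libraries. Between 26 and 35 members reached 1 CPM in a TKO library, and 43 to 46 did in a mutant library. The list was low in the 3 TKO tumors and higher in each of the 6 mutant tumors, with NFIB mutant 1 the lowest of the 6.

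Many members were hardly counted in TKO. Under 10 counts in every TKO library were found for 8 members, or 17.4% of the list, against 4.78% of all genes tested. These 8 were Zbp1, Oas1a, Oas2, Oas3, Ifi44, Isg15, Gbp2 and Gbp5. They passed the filter on low counts through the mutant libraries, so they had to differ, and their fold changes rest on few TKO counts. Where an adjusted p is printed below for any of them, the filter had set its direction in advance. The other 38 members had at least 10 counts in some TKO library. The filter, however, asks for enough counts in 3 libraries, the size of a genotype. Irf5, Ifit1, Ifit3, Mx1, Mx2, Oasl2, Xaf1, Parp14 and Gbp3 fell short of this in TKO, so they too passed through mutant libraries. Their adjusted p values, and the counts and medians of the 38, are therefore not free of the filter. Of the 38 members 29 were called higher for CARM1 knockout and 32 for NFIB mutant tumors, with median log2 fold changes of 2.69 and 2.83. No member was at 0 in every TKO library.

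**Figure D1:**
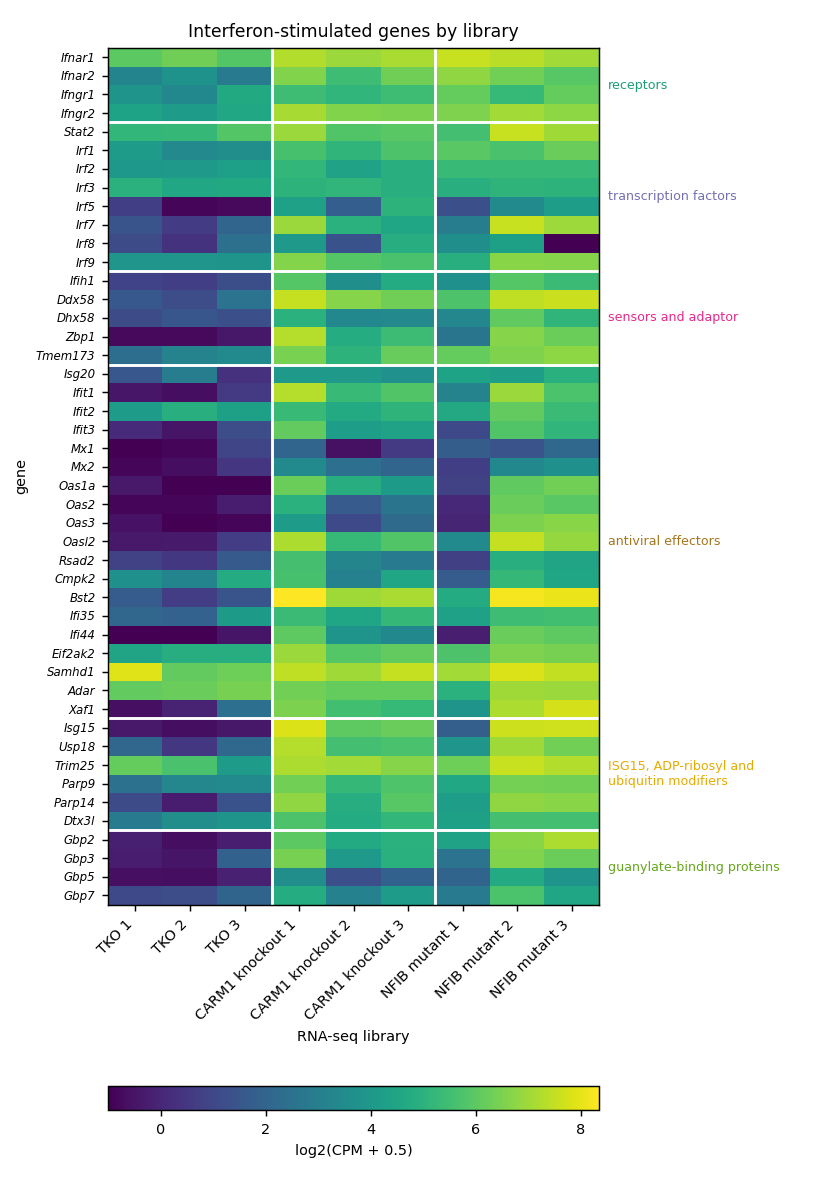
Heat map of the 46 members, grouped by role, in the 9 RNA-seq libraries as log2 of CPM plus 0.5. The 3 TKO columns are dark (low) for most members and the mutant columns light (high), with NFIB mutant 1 the darkest of the 6 mutant columns for most members.

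Sequence upstream of the start was read for the 37 members that have an entry in the RefSeq table of promoters (build GRCm38.p6, 250 bases before to 50 bases after the start, 27025 genes). The core of the ISRE was searched on both strands as GAAA, any 2 bases and GAAA, and 16 of the 37 members held it (43.2%, 95% Clopper-Pearson interval 27.1 to 60.5%), against 3.99% of all genes in the table. The gamma-activated site, searched as TTC, any 3 bases and GAA, was found in 40.5% of members and 9.55% of all genes. The short site of the NFI family, TTGGC, was found in 51.4% of members and 50.4% of all genes, and the full site, the short site and its reverse complement 5 bases apart, in 0 of 37 members, which allows a share of up to 9.49%, and 0.0444% of all genes. The motifs can share bases, as an ISRE core and a gamma-activated site do in Bst2. A match is a description of the letters and not a bound site. The table holds no entry used here for Dhx58, Usp18, Oas2, Zbp1, Parp9, Mx2, Tmem173, Parp14 and Mx1. Stretches of 6 promoters are shown because these 6 genes are among the largest rises, the stretches lie inside peaks of open chromatin (at Oas3, a peak whose middle is more than 1000 bp from the start), and each holds at least 1 core. They run 5' to 3' on the strand of the gene in the reference genome, which is C57BL/6J and may differ from the mixed background of these animals, and capitals mark the ISRE core on either strand:
Isg15 (chr4:156200845-156200926, minus strand): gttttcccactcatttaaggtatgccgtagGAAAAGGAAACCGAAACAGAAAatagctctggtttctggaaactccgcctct
Ifit1 (chr19:34640755-34640843, plus strand): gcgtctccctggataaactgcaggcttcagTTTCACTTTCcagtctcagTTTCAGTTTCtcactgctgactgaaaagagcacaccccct
Oas1a (chr5:120907526-120907575, minus strand): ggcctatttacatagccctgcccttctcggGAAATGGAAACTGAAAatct
Oas3 (chr5:120777695-120777764, minus strand): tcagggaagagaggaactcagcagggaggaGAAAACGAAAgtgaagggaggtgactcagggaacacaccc
Bst2 (chr8:71537557-71537632, minus strand): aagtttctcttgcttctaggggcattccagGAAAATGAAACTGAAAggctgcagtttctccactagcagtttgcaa
Gbp2 (chr3:142620574-142620643, plus strand): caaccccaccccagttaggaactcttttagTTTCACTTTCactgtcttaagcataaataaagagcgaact
In Isg15 the core was found 3 times in overlapping frames, from 78 to 57 bases before the start. In Oas1a and Bst2 a pair of cores overlapped, in Ifit1 a pair stood apart, and in Oas3 and Gbp2 there was 1. Ifi44, Oasl2 and Xaf1, also among the largest rises, held no core in the bases searched. Isg15, Oas1a, Oas3 and Gbp2 are among the 8 members hardly counted in TKO. The 16 members with the core had median log2 fold changes of 5.17 for CARM1 knockout and 5.49 for NFIB mutant tumors, and the 21 without it 2.06 and 2.18. Of the 16, 14 and 16 were called higher, and of the 21, 15 and 16. Among the 16 were 5 of the 8 members hardly counted in TKO, which had to differ, and 1 was among the 21. Without these the medians were 4.46 and 4.66 for 11 members with the core and 1.94 and 2.12 for 20 without it. Of those left, Ifit1, Ifit3 and Gbp3 with the core, and Irf5, Oasl2 and Xaf1 without it, also passed the filter through mutant libraries. The difference between members with and without the core was not tested.

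All 4 receptor chains were called higher in both mutants, with medians of 1.84 and 2.14 on the log2 scale. Ifnar1, a chain of the type I interferon receptor, read 63.2, 78.6 and 56.9 CPM in TKO tumors, 154, 123 and 141 CPM in CARM1 knockout tumors and 188, 165 and 132 CPM in NFIB mutant tumors, with log2 fold changes of 1.07 (SE 0.19, adjusted p = 0.00545) for CARM1 knockout and 1.28 (SE 0.19, adjusted p = 0.00220) for NFIB mutant tumors. Its partner Ifnar2 read 8.70, 13.5 and 6.78 CPM in TKO tumors, 94.6, 42.9 and 80.2 CPM in CARM1 knockout tumors and 111, 81.2 and 59.3 CPM in NFIB mutant tumors, and its fold changes were 2.91 (SE 0.41, adjusted p = 0.00247) for CARM1 knockout and 3.12 (SE 0.42, adjusted p = 0.00153) for NFIB mutant tumors. No mutant library reached down to the TKO range for either chain. Ifngr1, which binds interferon gamma, read 13.9, 9.71 and 24.9 CPM in TKO tumors, 43.1, 35.1 and 42.7 CPM in CARM1 knockout tumors and 70.2, 38.3 and 69.2 CPM in NFIB mutant tumors. On the log2 scale the fold changes of Ifngr1 were 1.32 (SE 0.38, adjusted p = 0.0302) for CARM1 knockout and 1.87 (SE 0.38, adjusted p = 0.00737) for NFIB mutant tumors. Ifngr2, the second chain of that receptor, rose from 21.2, 17.6 and 24.1 CPM in TKO to 140.2, 93.8 and 89.5 CPM and 93.1, 131 and 109 CPM, by 2.36 (SE 0.24, adjusted p = 0.000808) for CARM1 knockout and 2.41 (SE 0.24, adjusted p = 0.000558) for NFIB mutant tumors. Ifnar2, Ifnar1 and Ifngr2 lie on chromosome 16, with Il10rb, a chain of the type III receptor, between Ifnar2 and Ifnar1, in a stretch from 91372783 to 91565623 of GRCm38.

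Of the 8 transcription factors 4 were called higher for CARM1 knockout and 6 for NFIB mutant tumors, with medians of 2.04 and 2.16. Irf7, which carries the later wave of type I interferon transcription, showed the steepest rise with Irf5, from 2.16, 1.05 and 3.68 CPM in TKO to 123, 31 and 22.1 CPM in CARM1 knockout and 7.23, 189.8 and 125 CPM in NFIB mutant libraries. Its log2 fold changes were 4.67 (SE 1.25, adjusted p = 0.0238) for CARM1 knockout and 5.54 (SE 1.30, adjusted p = 0.0123) for NFIB mutant tumors. NFIB mutant 1 was far below the other mutant libraries for Irf7 but above all 3 TKO libraries. Irf9, which binds DNA in a complex with STAT2, read 14.3, 14.2 and 13.9 CPM in TKO tumors, 96.5, 58.6 and 50.1 CPM in CARM1 knockout tumors and 29.2, 102 and 98.9 CPM in NFIB mutant tumors. It rose by 2.27 (SE 0.48, adjusted p = 0.0101) for CARM1 knockout and 2.44 (SE 0.48, adjusted p = 0.00634) for NFIB mutant tumors. Irf1, an activator that responds to interferon gamma, had 16.8, 10.1 and 11.9 CPM in TKO tumors, 48.8, 34.1 and 52.4 CPM in CARM1 knockout tumors and 61.5, 49.6 and 74.4 CPM in NFIB mutant tumors, and rose by 1.80 (SE 0.28, adjusted p = 0.00316) for CARM1 knockout and 2.26 (SE 0.28, adjusted p = 0.00118) for NFIB mutant tumors. For Irf1 the NFIB mutant 1 library was in the middle of its genotype.

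Stat2 moved less. It read 36.4, 36.7 and 56.8 CPM in TKO tumors, 123, 55.8 and 61.1 CPM in CARM1 knockout tumors and 46, 186 and 129.8 CPM in NFIB mutant tumors, so that CARM1 knockout 2 and NFIB mutant 1 lay within the TKO range. The log2 fold changes were 0.89 (SE 0.52, adjusted p = 0.209) for CARM1 knockout and 1.48 (SE 0.53, adjusted p = 0.0525) for NFIB mutant tumors, and the call in NFIB mutant tumors was lost when TKO 1, TKO 2, NFIB mutant 2 or NFIB mutant 3 was left out (adjusted p between 0.112 and 0.166). Irf3, the factor that starts interferon transcription and is held ready in most cells, read 30.5, 23.2 and 25.4 CPM in TKO tumors, 32.7, 35.3 and 28.7 CPM in CARM1 knockout tumors and 29.6, 33.2 and 32.4 CPM in NFIB mutant tumors, a difference of 0.29 and 0.27 that was not called. Irf8, a factor of myeloid and lymphoid cells, had 1.78, 0.787 and 4.92 CPM in TKO tumors, 15.9, 2.04 and 27.9 CPM in CARM1 knockout tumors and 12.2, 19.2 and 0 CPM in NFIB mutant tumors, so NFIB mutant 3 held no count of it. Where genes overlap, reads may have been assigned to either, and the strand setting of the counting is not given in the sources used here. This touches Irf3, Irf5, Irf7, Adar, Parp9 and Dtx3l, which overlap a gene on the other strand, and Irf9, which overlaps Rnf31 on its own strand.

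**Figure D2:**
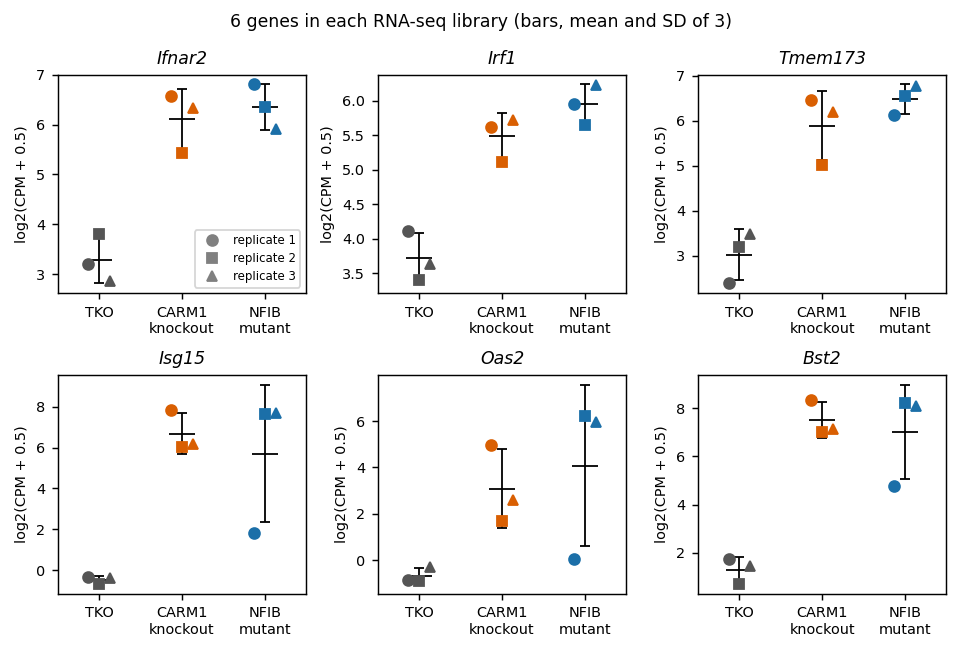
RNA-seq level of Ifnar2, Irf1, Tmem173, Isg15, Oas2 and Bst2 as log2 of CPM plus 0.5, with a point for each library and a bar for the mean and SD of the 3 libraries of a genotype. For Ifnar2, Irf1 and Tmem173 the 6 mutant libraries lie near each other, whereas Isg15, Oas2 and Bst2 have 1 NFIB mutant library far below the other 2.

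All 5 sensors and adaptors rose in both mutants. Ddx58, which encodes RIG-I, a sensor of viral RNA in the cytoplasm, read 2.45, 1.84 and 5.36 CPM in TKO tumors, 183, 101 and 79.3 CPM in CARM1 knockout tumors and 53.5, 175 and 192 CPM in NFIB mutant tumors, with log2 fold changes of 5.23 (SE 0.69, adjusted p = 0.00202) for CARM1 knockout and 5.44 (SE 0.70, adjusted p = 0.00142) for NFIB mutant tumors. Ifih1, which encodes MDA5, a sensor of long RNA duplexes, read 1.35, 1.18 and 1.86 CPM in TKO tumors, 58.2, 12.1 and 26.6 CPM in CARM1 knockout tumors and 12.4, 57.9 and 41.4 CPM in NFIB mutant tumors, and rose by 4.46 (SE 0.77, adjusted p = 0.00495) for CARM1 knockout and 4.66 (SE 0.78, adjusted p = 0.00339) for NFIB mutant tumors. For both sensors every mutant library was several times above every TKO library. Tmem173 encodes STING, the adaptor that answers to DNA in the cytoplasm, and read 4.71, 8.66 and 10.6 CPM in TKO tumors, 88, 32.1 and 72.1 CPM in CARM1 knockout tumors and 69.5, 92.5 and 109 CPM in NFIB mutant tumors. Its fold changes were 3.0 (SE 0.45, adjusted p = 0.00312) for CARM1 knockout and 3.50 (SE 0.46, adjusted p = 0.00153) for NFIB mutant tumors. Zbp1, a sensor of nucleic acids in the Z conformation, was near the 3-count limit in TKO with 0.0961, 0.0875 and 0.266 CPM and reached 158, 26.9 and 41.7 CPM in CARM1 knockout and 5.71, 101 and 76.2 CPM in NFIB mutant libraries, a rise of 8.91 (SE 1.44, adjusted p = 0.00394) for CARM1 knockout and 8.60 (SE 1.43, adjusted p = 0.00336) for NFIB mutant tumors. Dhx58, which encodes LGP2, a regulator of RIG-I and MDA5, had fold changes of 3.08 and 4.19.

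Isg15 was among the largest rises of the list. This ubiquitin-like modifier (chr4:156199424-156200818) had 6, 3 and 6 counts in TKO 1, 2 and 3, 3371, 1104 and 1298 counts in the CARM1 knockout libraries, and 50, 3197 and 3229 counts in the NFIB mutant libraries. In CPM these were 0.288, 0.131 and 0.266 in TKO, 229, 64.4 and 72.9 in CARM1 knockout and 3.04, 197 and 205 in NFIB mutant tumors, and the log2 fold changes were 9.02 (SE 1.66, adjusted p = 0.00631) for CARM1 knockout and 9.17 (SE 1.67, adjusted p = 0.00480) for NFIB mutant tumors. NFIB mutant 1 lay above TKO and far below the other mutant libraries. The 5 other genes of the modifier group were called higher in both mutants too. Parp14, an ADP-ribosyltransferase, read 1.78, 0.350 and 2.08 CPM in TKO tumors, 110.3, 27.6 and 59.8 CPM in CARM1 knockout tumors and 18, 109 and 103 CPM in NFIB mutant tumors, with fold changes of 5.55 (SE 1.0, adjusted p = 0.00589) for CARM1 knockout and 5.77 (SE 1.01, adjusted p = 0.00417) for NFIB mutant tumors. Usp18, the protease that removes ISG15 from its targets, rose by 4.90 and 4.72. Parp9 and Dtx3l, which act as a pair, rose by 2.78 and 2.89 and by 1.82 and 1.79. Trim25, the ubiquitin ligase that acts on RIG-I, rose least in this group, by 1.48 and 1.62.

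Among the 19 antiviral effectors 14 rose with CARM1 knockout and 15 with mutant NFIB, with medians of 4.13 and 4.43. The oligoadenylate synthetases, which make the signal that activates RNase L, were nearly silent in TKO. Oas1a read 0.288, 0 and 0 CPM in TKO tumors, 75, 27.8 and 16.6 CPM in CARM1 knockout tumors and 1.28, 66.4 and 80.7 CPM in NFIB mutant tumors, and its log2 fold changes were 8.64 (SE 1.92, adjusted p = 0.0123) for CARM1 knockout and 8.96 (SE 1.94, adjusted p = 0.00910) for NFIB mutant tumors. Oas2 read 0.0480, 0.0437 and 0.310 CPM in TKO tumors, 30.6, 2.74 and 5.62 CPM in CARM1 knockout tumors and 0.547, 74.5 and 61.2 CPM in NFIB mutant tumors, with fold changes of 6.52 (SE 1.89, adjusted p = 0.0314) for CARM1 knockout and 8.32 (SE 2.02, adjusted p = 0.0140) for NFIB mutant tumors. In both genes NFIB mutant 1 was far below the other NFIB mutant libraries. It held 21 counts of Oas1a, against 6, 0 and 0 in TKO, and 9 of Oas2, against 1, 1 and 7. Both genes thus stayed above TKO, Oas2 by few counts. Oas3, their neighbour on chromosome 5 (chr5:120753098-120777661), read 0.192, 0 and 0.0443 CPM in TKO tumors, 16.8, 1.57 and 4.16 CPM in CARM1 knockout tumors and 0.486, 90.7 and 102 CPM in NFIB mutant tumors, a rise of 6.49 (SE 2.01, adjusted p = 0.0392) for CARM1 knockout and 9.59 (SE 2.21, adjusted p = 0.0117) for NFIB mutant tumors. The call of Oas3 in CARM1 knockout tumors was lost without TKO 2 (5.92, adjusted p = 0.110) and without CARM1 knockout 1 (5.12, adjusted p = 0.104). Oasl2, a related protein that binds RNA, read 0.288, 0.306 and 1.11 CPM in TKO tumors, 145, 38.3 and 55.6 CPM in CARM1 knockout tumors and 10.6, 185 and 116 CPM in NFIB mutant tumors, and rose by 7.11 and 7.49 (adjusted p = 0.00546 and 0.00372). Oas1a, the Ifit genes and the guanylate-binding proteins have close copies in the genome, so part of their reads may have been dropped or split.

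Bst2, or tetherin, holds budding virus at the cell surface. It read 2.83, 1.14 and 2.22 CPM in TKO tumors, 325, 128 and 142 CPM in CARM1 knockout tumors and 26.6, 294 and 272 CPM in NFIB mutant tumors, with fold changes of 6.59 (SE 1.01, adjusted p = 0.00330) for CARM1 knockout and 6.58 (SE 1.01, adjusted p = 0.00251) for NFIB mutant tumors. Ifit1, which binds viral RNA caps, read 0.240, 0.131 and 1.02 CPM in TKO tumors, 159, 39.4 and 56 CPM in CARM1 knockout tumors and 8.63, 123 and 51 CPM in NFIB mutant tumors, and rose by 7.49 (SE 1.33, adjusted p = 0.00549) for CARM1 knockout and 7.01 (SE 1.31, adjusted p = 0.00522) for NFIB mutant tumors. As for Isg15, NFIB mutant 1 was the lowest mutant library for both genes and CARM1 knockout 1 the highest. Ifi44 read 0, 0 and 0.222 CPM in TKO tumors, 64.3, 13.9 and 9.89 CPM in CARM1 knockout tumors and 0.365, 72.9 and 65.6 CPM in NFIB mutant tumors, a rise of 8.49 (SE 2.16, adjusted p = 0.0202) for CARM1 knockout and 9.15 (SE 2.20, adjusted p = 0.0138) for NFIB mutant tumors. Xaf1, a gene of cell death pathways, read 0.144, 0.437 and 4.83 CPM in TKO tumors, 91, 45.4 and 38.1 CPM in CARM1 knockout tumors and 13.9, 146 and 213 CPM in NFIB mutant tumors, and rose by 5.0 (SE 1.42, adjusted p = 0.0295) for CARM1 knockout and 6.10 (SE 1.5, adjusted p = 0.0146) for NFIB mutant tumors. TKO 3 held most of the Xaf1 reads of its genotype.

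Rsad2 and Mx1 were less certain. Rsad2, which encodes viperin, read 1.30, 0.919 and 2.66 CPM in TKO tumors, 47.1, 9.04 and 6.91 CPM in CARM1 knockout tumors and 1.22, 28.2 and 21.2 CPM in NFIB mutant tumors, with fold changes of 3.69 (SE 1.22, adjusted p = 0.0487) for CARM1 knockout and 3.37 (SE 1.20, adjusted p = 0.0535) for NFIB mutant tumors. Its NFIB mutant 1 library was inside the TKO range, and its calls were lost without TKO 1 or TKO 2 (adjusted p between 0.128 and 0.142), without CARM1 knockout 1 in that mutant (adjusted p = 0.167), and without NFIB mutant 2 or 3 in the other (adjusted p = 0.132 and 0.110). Mx1, a GTPase against influenza virus that common laboratory strains carry in a defective form, read 0, 0.0437 and 1.42 CPM in TKO tumors, 3.66, 0.175 and 1.01 CPM in CARM1 knockout tumors and 2.86, 2.10 and 3.88 CPM in NFIB mutant tumors. Its fold changes of 1.71 (SE 1.56, adjusted p = 0.412) for CARM1 knockout and 2.57 (SE 1.59, adjusted p = 0.218) for NFIB mutant tumors were not called, and without TKO 3 they were 5.81 (adjusted p = 0.0352) and 6.66 (adjusted p = 0.0213). Mx2 rose by 4.13 and 4.43. Of the effectors that TKO tumors already held, Samhd1, which limits the supply of nucleotides, was not called (0.35 and 0.49), nor was Adar, which edits duplex RNA (-0.03 and 0.32). Eif2ak2, which encodes the kinase PKR and was also counted in every TKO library, rose by 1.69 and 1.58.

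All 4 guanylate-binding proteins, GTPases that attack the membranes around intracellular microbes, rose in both mutants, with medians of 4.86 and 5.75. They lie in 1 cluster on chromosome 3, between 142493978 and 142638008. Gbp2 read 0.384, 0.131 and 0.354 CPM in TKO tumors, 63.9, 25.7 and 30.6 CPM in CARM1 knockout tumors and 20.6, 101 and 147 CPM in NFIB mutant tumors, with fold changes of 7.08 (SE 0.92, adjusted p = 0.00184) for CARM1 knockout and 8.24 (SE 0.96, adjusted p = 0.000972) for NFIB mutant tumors. Gbp3, Gbp5 and Gbp7 rose by 5.12, 4.60 and 2.92 in CARM1 knockout and by 5.53, 5.96 and 3.54 in NFIB mutant tumors. Per kilobase of exon, the order of the genes turned over with the genotype. The mean level in TKO was highest for Samhd1, at 14 CPM per kilobase, and Ifnar1, at 11.2. In the mutants Bst2 led, with 219.9 CPM per kilobase for CARM1 knockout and 219 for NFIB mutant tumors, before Isg15 with 161 and 179.

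**Figure D3:**
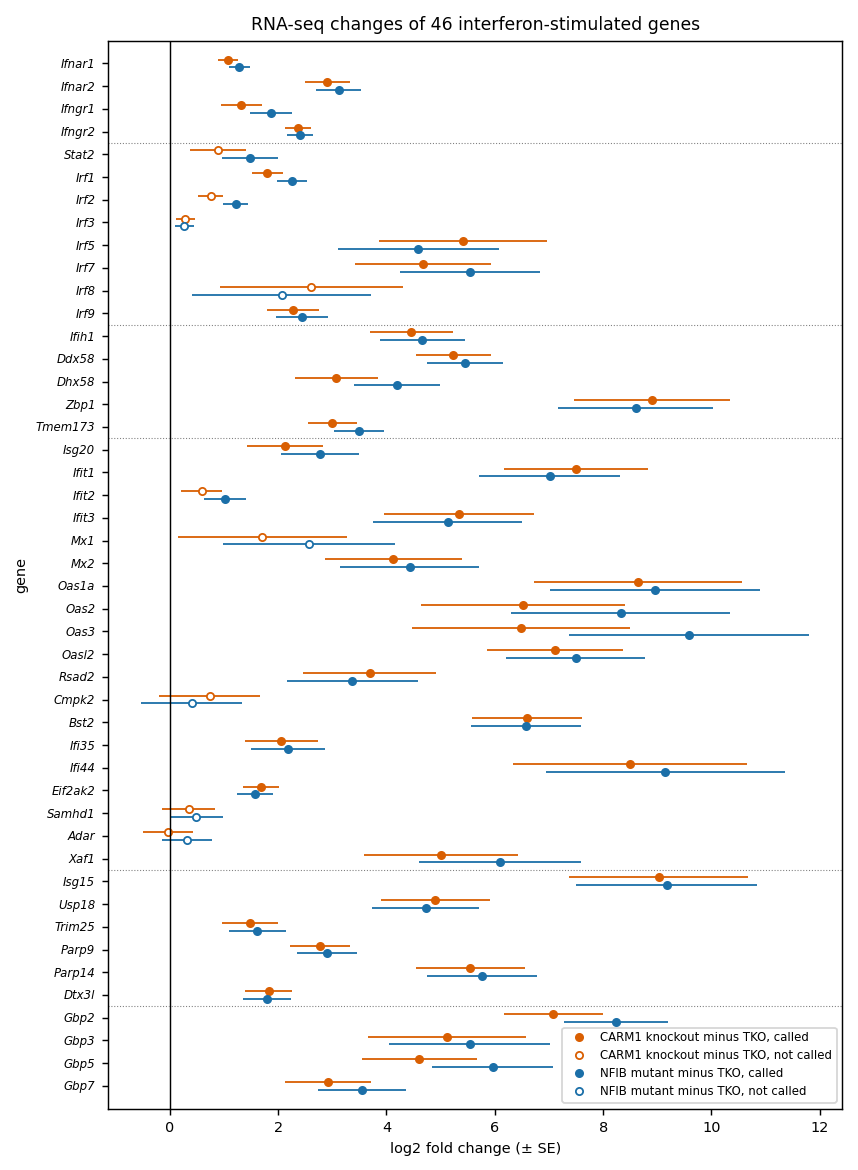
Log2 fold change of each member against TKO, with its standard error, in CARM1 knockout and NFIB mutant tumors. Filled symbols passed the threshold, and they lie right of 0 for 37 and 40 of the 46 members.

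NFIB mutant 1 was set apart from NFIB mutant 2 and 3 for most of the list, though not for all of it. It was the lowest of the 6 mutant libraries for 32 of 46 members, while it was the lowest for 15.5% of all genes tested. The mean of NFIB mutant 2 and 3 was at least 2 times the level of NFIB mutant 1 for 33 members, or 71.7%, against 7.16% of all genes. It was at least 10 times that level for 15 members, or 32.6%, against 1.61%. The median ratio was 4.64 for the members and 0.994 for all genes. The widest ratios were 198 for Oas3, 190 for Ifi44 and 124 for Oas2, and these 3 genes also had the widest range within a genotype, 6.70, 6.41 and 6.16 on the scale of log2 of CPM plus 0.5. For 8 members, among them Rsad2, Ifit3 and Stat2, NFIB mutant 1 did not exceed the highest TKO library.

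A ratio below 1 was found for 5 members, all receptors or transcription factors. Ifnar2 had a ratio of 0.631, Ifngr1 of 0.766, Ifnar1 and Irf8 of 0.791, and Irf2 of 0.997, and Irf1 followed at 1.01. NFIB mutant 1 thus carried receptor levels like those of the other mutants together with lower levels of most effectors. Without NFIB mutant 1 the count of members called higher in NFIB mutant tumors was 40 again. Within a genotype the median range over the members was 2.64 for NFIB mutant, 1.43 for CARM1 knockout and 0.96 for TKO tumors, on the same log2 scale. NFIB mutant 1 also held the most lung epithelium markers, given above, and the part of this in its lower levels was not tested.

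**Figure D4:**
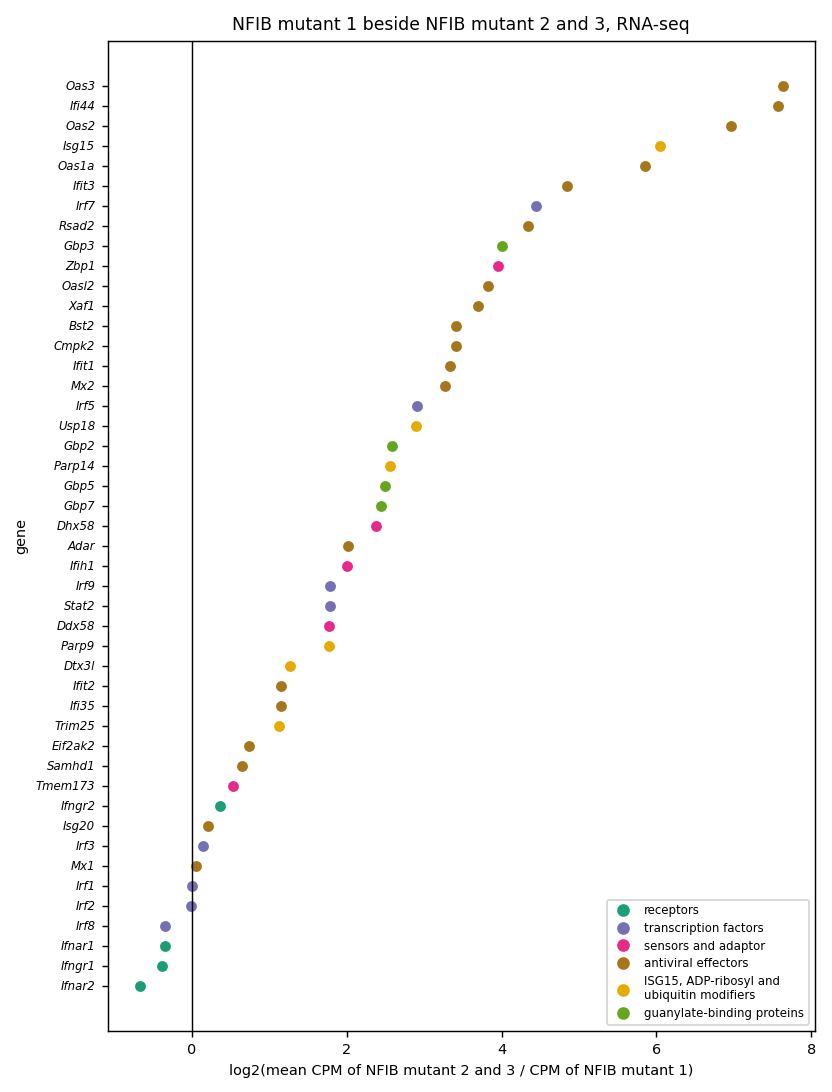
Log2 ratio of the mean CPM of NFIB mutant 2 and 3 to the CPM of NFIB mutant 1 for each member, ordered by its size. Most members lie right of 0, up to a ratio of 198 for Oas3, and Ifnar2, Ifngr1, Ifnar1, Irf8 and Irf2 lie left of it.

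Between the mutants no member was called. The smallest adjusted p among the 46 members was 0.592 and the smallest unadjusted p 0.0789, so 0 members had an unadjusted p under 0.05, against 9.11% of all genes, and DESeq2 called 0 as well. Of all genes tested 0.00% were called in either direction in this comparison. The median difference of CARM1 knockout minus NFIB mutant was -0.22 over the members. Oas3 differed most, by -3.10 (SE 1.58, adjusted p = 0.599). Differences of this size were within the spread of the libraries, and an exact permutation test of 3 libraries against 3 cannot give a p below 0.1.

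Genes that make or relay the interferon signal were examined as further lists. The 21 interferon ligand genes of types I, II and III had too few counts to be tested, with 0, 0 and 2 counts in all in TKO, 6, 6 and 1 in CARM1 knockout and 2, 4 and 0 in NFIB mutant libraries. Each ligand had 3 counts or fewer in each library, so ligand transcripts were not detectable at this depth. Of the type III receptor chains and the kinases shared by the receptors, 3 of 5 rose in each mutant. Jak1, bound to IFNAR2 and IFNGR1, rose by 1.26 and 1.57, Tyk2 by 0.86 and 1.29, and Il10rb, a chain of the type III receptor, by 2.82 and 2.97. Jak2 (1.12 and 1.07, adjusted p = 0.103 and 0.103) and Ifnlr1 were not called.

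Of the pathway that leads from sensors to interferon transcription, 9 of 11 genes were tested and 6 rose in each mutant. Mavs, the mitochondrial adaptor of RIG-I and MDA5, read 13.5, 12.9 and 13.1 CPM in TKO tumors, 43.5, 41.5 and 45.1 CPM in CARM1 knockout tumors and 48, 55.4 and 65.2 CPM in NFIB mutant tumors. Its rise was 1.72 (SE 0.17, adjusted p = 0.000659) for CARM1 knockout and 2.10 (SE 0.17, adjusted p = 0.000286) for NFIB mutant tumors, and NFIB mutant 1 was close to the other mutant libraries for this gene. Ikbke, a kinase that activates IRF3 and IRF7, rose by 4.26 and 4.50, the adaptor Myd88 by 3.33 and 3.34 and the adaptor Ticam1 by 1.31 and 1.66. Tbk1, the sister kinase of Ikbke, went the other way and fell in NFIB mutant tumors (-1.15 (SE 0.19, adjusted p = 0.00299)), and was not called in CARM1 knockout tumors (-0.52 (SE 0.19, adjusted p = 0.0606)). Traf3 was not called. Mb21d1, which encodes cGAS, the DNA sensor upstream of STING, was looked up after its values had been seen and differed by -0.08 and 0.36, neither called. Of 6 feedback inhibitors Socs1 rose by 1.65 and 1.74 and Socs3 by 1.38 and 1.84, and the other 4 were not called.

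A further list of 30 interferon-stimulated genes gave 24 called higher and 0 lower in each mutant, with medians of 3.56 and 4.21. Of all genes tested 20.5% and 22.3% were called higher and 18.3% and 23.5% lower. This list too was low in TKO, with medians of 0.913, 0.634 and 3.90 CPM and 1, 5 and 2 genes at 0 in TKO 1, 2 and 3. Some of its genes may thus have passed the low-count filter through the mutant libraries. Ifitm3, which blocks the entry of enveloped viruses, read 8.02, 3.59 and 0.931 CPM in TKO tumors, 736, 419.7 and 365 CPM in CARM1 knockout tumors and 268, 847 and 626 CPM in NFIB mutant tumors, a rise of 6.92 (SE 0.91, adjusted p = 0.00198) for CARM1 knockout and 7.12 (SE 0.92, adjusted p = 0.00142) for NFIB mutant tumors. Ifitm2 rose by 3.13 and 3.62, Rnf213 by 2.65 and 2.68, Lgals3bp by 4.39 and 4.90, Shisa5 by 4.03 and 4.44, and Pml, which builds nuclear bodies, by 1.72 and 2.27. Ifitm1, Gbp4, Gbp6, Gbp9, Herc6 and Nmi were called in neither mutant.

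Leukocytes hold many of these transcripts, so 16 leukocyte markers were set beside the list. Their summed level was 49.5, 2.76 and 2.08 CPM in TKO 1, 2 and 3, 817, 171 and 2585 CPM in CARM1 knockout tumors, and 431, 499.7 and 15.1 CPM in NFIB mutant tumors. Between 0 and 5 of the 16 reached 1 CPM in a TKO library, 5 or 6 in a CARM1 knockout library and 2 to 6 in an NFIB mutant library. Cd3e, Cd3g, Ms4a1, S100a9 and Siglech were at 0 in all 9 libraries, while S100a8, which like S100a9 marks neutrophils, reached 0.899 to 61.5 CPM in the mutant libraries. Of the 7 markers tested 6 were called higher in CARM1 knockout tumors, a count that was 1 without TKO 2 and 3 without TKO 3, CARM1 knockout 1 or CARM1 knockout 3. In NFIB mutant tumors 2 were called, Csf1r and S100a8, a count that was 4 without NFIB mutant 1 and 1 without NFIB mutant 2. Fibroblast markers were called higher for 6 and 5 of 6 genes, and neuroendocrine markers lower for 2 of 12 in CARM1 knockout tumors (11 without CARM1 knockout 3) and 11 of 12 in NFIB mutant tumors. The part of leukocytes, of fibroblasts, or of the loss of neuroendocrine cells, in the levels of the members was not tested. Of 21 housekeeping genes, 7 and 10 were called higher, with medians of 0.54 and 0.77, below the medians of the members.

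Open chromatin at the start sites moved in the same direction for some of the members and in the opposite direction for a few. Peaks were held to an adjusted p under 0.1 and a log2 fold change of at least 0.5 either way. Of the 55 start-site peaks 22 were higher and 5 lower in CARM1 knockout tumors, where 19.0% and 35.1% of the start-site peaks of any gene were. In NFIB mutant tumors 25 were higher and 7 lower, against 19.4% and 39.6%. The median log2 fold changes were 0.51 and 0.53 for the members and -0.32 and -0.38 for the start-site peaks of any gene, and the sign of the last 2 turned with scaling by library totals alone, to 0.26 and 0.19, with 1.05 and 1.06 for the members. In both mutants 21 peaks were higher and 5 lower. All 6 mutant libraries lay above the 3 TKO libraries for 18 peaks and below them for 6, or 32.7% and 10.9%, against 16.6% and 37.7% of the start-site peaks of any gene. By library, the median of the member peaks was 9.47, 9.15 and 10.4 CPM in TKO tumors, 17.6, 17.8 and 13.4 CPM in CARM1 knockout tumors and 13, 17.8 and 17.5 CPM in NFIB mutant tumors, while that of the start-site peaks of any gene was 13.5 to 14.2 CPM in TKO and 10.04 to 11.3 CPM in the mutants. Between the mutants 0 peaks were called, with 2 at an unadjusted p under 0.05 (6.13% of all peaks) and a smallest adjusted p of 0.745, and 0.00% of all peaks were called.

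At the Isg15 start, the peak chr4:156199782-156201628 read 1.40, 1.33 and 1.31 CPM in TKO tumors, 13, 9.75 and 4.35 CPM in CARM1 knockout tumors and 2.90, 11.4 and 8.18 CPM in NFIB mutant tumors, and rose by 2.74 (SE 0.57, adjusted p = 0.00195) for CARM1 knockout and 2.47 (SE 0.56, adjusted p = 0.00299) for NFIB mutant tumors. It holds the 3 overlapping cores printed above, and as in RNA-seq NFIB mutant 1 was the lowest mutant library. The Oas2 peak chr5:120749318-120750361 read 0.956, 0.680 and 0.549 CPM in TKO tumors, 5.45, 2.55 and 1.16 CPM in CARM1 knockout tumors and 0.598, 10.1 and 8.62 CPM in NFIB mutant tumors, so NFIB mutant 1 lay within the TKO range. Its rise was 2.06 (SE 0.88, adjusted p = 0.0578) for CARM1 knockout and 3.13 (SE 0.91, adjusted p = 0.0104) for NFIB mutant tumors, and the call in CARM1 knockout tumors was lost without TKO 2, TKO 3 or CARM1 knockout 1. At Oas1a the reads were 3.03, 1.08 and 2.15 CPM in TKO tumors, 18.4, 15.9 and 6.07 CPM in CARM1 knockout tumors and 1.52, 14.7 and 12.2 CPM in NFIB mutant tumors, a rise of 2.69 and 2.19, again with NFIB mutant 1 inside the TKO range. The peak at Zbp1 read 3.73, 5.07 and 7.14 CPM in TKO tumors, 33.6, 19.6 and 12.4 CPM in CARM1 knockout tumors and 9.77, 29.1 and 20.8 CPM in NFIB mutant tumors, a rise of 2.04 (SE 0.46, adjusted p = 0.00309) for CARM1 knockout and 1.91 (SE 0.46, adjusted p = 0.00405) for NFIB mutant tumors. Of the other named genes with higher RNA, the most read peak rose in both mutants at Oasl2 (1.94 and 1.69), Xaf1 (1.49 and 1.58), Irf9 (1.34 and 1.38), Gbp2 (1.21 and 1.40), Parp14 (1.11 and 1.13), Ifih1 (1.10 and 0.93), Bst2 (0.97 and 0.73), Ddx58 (0.90 and 0.85) and Ifit1 (0.75 and 0.87). Ifit1 was near the threshold (adjusted p = 0.0883 and 0.0517). Its call in CARM1 knockout tumors was lost when any of TKO 1, TKO 2, TKO 3, CARM1 knockout 1, CARM1 knockout 2 or NFIB mutant 2 was left out, and in NFIB mutant tumors without TKO 2, NFIB mutant 2 or NFIB mutant 3.

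Other peaks did not follow the transcript. The peak at the Ifnar2 start (chr16:91372123-91374041) read 50.6, 52.9 and 42.4 CPM in TKO tumors, 20.1, 26.3 and 29.1 CPM in CARM1 knockout tumors and 19.99, 26.1 and 23 CPM in NFIB mutant tumors. It fell in both mutants (-0.95 (SE 0.18, adjusted p = 0.00140) and -1.08 (SE 0.18, adjusted p = 0.000647)) while the transcript rose, though by totals alone the differences were -0.35 and -0.50 and no longer called. Ifnar1 (-0.42 and -0.50), Irf1 (-0.30 and -0.32), Stat2 (-0.30 and -0.40), Irf7 (0.50 and 0.39) and Tmem173 (-0.42 and -0.09) had start-site peaks that were not called in either mutant. Some of these calls turned on the scaling or on 1 library. With DESeq2 the Ifnar1 peak was lower in both mutants (-0.59 and -0.64, adjusted p = 0.0397 and 0.0255), as it was with RLE factors and without TKO 1. Scaled by housekeeping start sites, the Irf7 peak was higher in both (0.55 and 0.51, adjusted p = 0.0522 and 0.0666), as it was by totals alone and without TKO 3. The study scaled in a like way, by genes expressed evenly over its genotypes, which its methods do not name. Of the 21 housekeeping genes used here, 7 and 10 were called higher in RNA-seq. The Ifngr1 peak was called lower in NFIB mutant tumors (-0.54 (SE 0.18, adjusted p = 0.0231)), a call lost without TKO 3 or NFIB mutant 1. It was also lost by housekeeping start sites (-0.41), with at least 10 counts in every library and by either scaling by totals. The Ifngr2 peak was called higher in CARM1 knockout tumors (0.68 (SE 0.16, adjusted p = 0.00363)). In NFIB mutant tumors it rose by 0.485 (SE 0.16, adjusted p = 0.0182), just under the fold minimum, and was called by housekeeping start sites (0.62, adjusted p = 0.00283). At Mx1 the most read peak was not called (0.33 and 0.21), while a smaller one inside the gene, centred 652 bp before an internal transcript start, rose by 2.30 and 3.20. The 5 peaks lower in both mutants were those of Ifnar2 and Irf8 (-0.98 and -1.06), 1 of Adar (-0.68 and -0.78) and a pair at Cmpk2 (-0.80 and -0.89 for the more read, -2.05 and -2.95 for the other), so effectors had 3 of them. The more read peak of Adar, at an internal start, was higher in both (0.56 and 0.58). The most read Rsad2 peak was lower without a call (-0.56 and -0.69). A smaller Rsad2 peak, at an internal start, rose by 1.06 in CARM1 knockout tumors without a call. In NFIB mutant tumors this smaller peak was called higher (1.57, adjusted p = 0.0434).

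Set side by side for the 44 genes, 21 had both a higher transcript and a higher most read start-site peak in CARM1 knockout tumors and 20 did in NFIB mutant tumors. Parp9 and Dtx3l share the same peak, which was higher in both mutants and was counted for each gene. A higher transcript stood beside an uncalled peak in 13 and 15 genes, and beside a lower peak in 1 and 3. As shares of the 44 these were 47.7% and 45.5%, 29.5% and 34.1%, and 2.27% and 6.82%. Of all 13944 genes tested with a start-site peak, 8.20% and 8.65% had both higher, 10.8% and 11.4% a higher transcript beside an uncalled peak, and 1.76% and 2.77% beside a lower one. As counts these were 1143 and 1206, 1511 and 1591, and 246 and 386 genes. A higher transcript was more common among members, which raises all their shares. The shares thus do not compare the peaks of genes whose transcript was higher. NFIB mutant 1 was the lowest of the 6 mutant libraries for 34 of the 55 member peaks, against 30.8% of the start-site peaks of any gene.

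**Figure D5:**
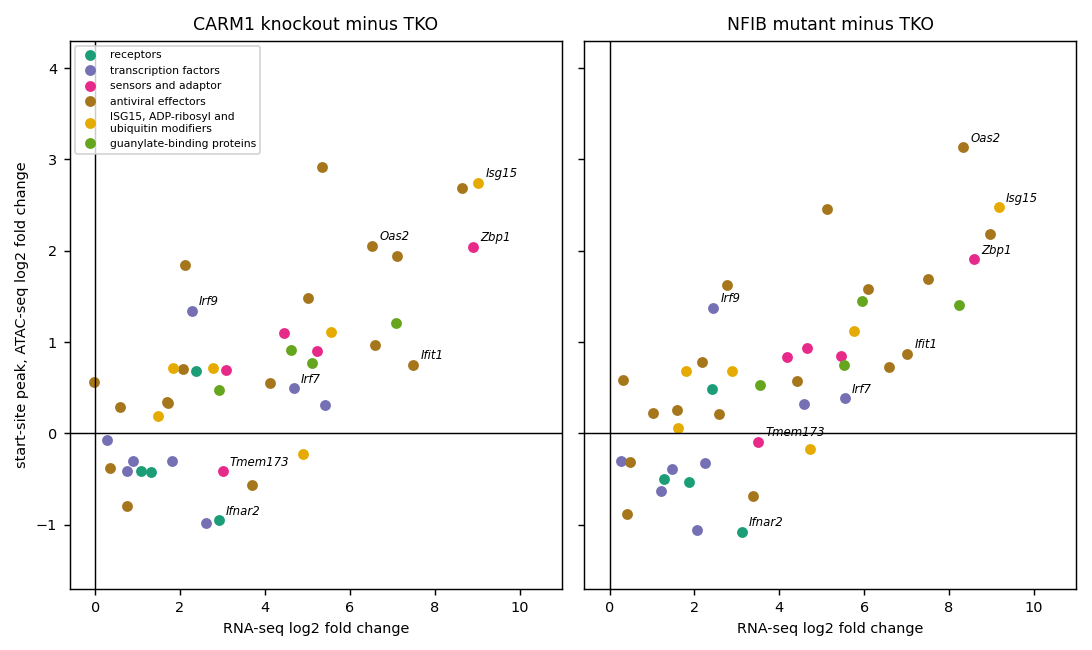
Log2 fold change of the transcript against that of the most read start-site peak for the 44 genes, in a panel for each mutant against TKO. Isg15, Oas2 and Zbp1 lie high on both axes, whereas Ifnar2 has a higher transcript (2.91 and 3.12) and a lower peak (-0.95 and -1.08).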

How the data were processed

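RNA-seq and ATAC-seq libraries of 3 genotypes were used, 3 per genotype and assay. Per the methods, the authors trimmed RNA-seq reads with Trim Galore, mapped them with HISAT2 to mm10 and counted them with htseq-count. ATAC-seq reads were mapped with Bowtie2, Picard took out duplicates and MACS2 gave the peaks. The labels name Genrich, HTSeq, featureCounts, DESeq and GRCm38, and the header of the peak table names featureCounts 1.6.3. The deposited values are unnormalized counts per gene and per peak of 1 merged set. Columns C were read as TKO, which the study calls its control, and KO and N by their letters. Library sizes and tests left out the 5 summary lines of the RNA-seq counting. Reads outside genes, 1 of these 5 lines, were 12.2, 10.0 and 11.0% of all entries in TKO 1, 2 and 3. In the mutant libraries they were lower, at 3.65 to 5.17%. The part of this difference in the comparisons with TKO was not tested. All libraries differed from one another in their counts.

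Counts were tested in R 4.3.3 with edgeR 4.0.16 (TMM, filterByExpr, robust quasi-likelihood test, Benjamini-Hochberg over all features) in 1 model of 9 libraries with genotype as the only term. The thresholds are those of the study, which used DESeq2. Standard errors are of the log2 fold change. CPM were scaled with the TMM factors, and 0.5 CPM was added before logarithms in the figures. Ensembl IDs were matched to symbols, starts and exon lengths in GENCODE M21 (GRCm38). Alternatives used DESeq2 1.42.0 and other scalings, filters, thresholds and sets of libraries. The model was run on simulated counts with the same spread for all genes and changes in CARM1 knockout alone. That run cannot speak for members with a wide spread within a genotype.

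Members, lists and tests were chosen with earlier results of these data known. Every library is given for the 4 receptors, for Stat2, Irf1, Irf7, Irf9, Ddx58, Ifih1, Tmem173, Isg15, Ifit1, Mx1, Oas2, Rsad2, Bst2 and Gbp2, for the 12 members with the largest mean log2 fold change among those called alike in both mutants without overlap of libraries and with a mean of 1 CPM or more in a genotype, and for the 3 with the widest range in a genotype. Pathway lists name up to 6 genes by mean CPM, and any other gene named was chosen after its values were seen. The peak named is the one with the most reads. Of 16 leukocyte, 12 neuroendocrine, 6 fibroblast, 6 endothelial and 10 lung epithelium markers, 7, 12, 6, 5 and 8 were tested. Endothelial markers were called higher for 1 gene in each mutant and lower for 0 and 1, and lung epithelium markers higher for 0 and 2 and lower for 1 and 1.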

Additional observations from a re-analysis of the deposited data

How the results depend on the processing

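The counts of members called in RNA-seq moved by less than 1.5 times under each alternative run except the filter of at least 10 counts in every library. There, 28 members were left among 10947 genes tested, and 21 were higher for CARM1 knockout and 24 for NFIB mutant tumors, with 13 of the further list of 30 genes in each. Leaving out 1 library at a time gave 32 to 39 and 36 to 40 members with higher RNA, 16 to 26 and 22 to 30 with higher peaks, 5 to 7 and 5 to 8 with lower peaks, 19 to 26 and 22 to 27 of the further list, and 0 between the mutants. Scaling of ATAC-seq mattered most. By totals alone 34 peaks were higher and 1 lower for CARM1 knockout and 1 was lower for NFIB mutant tumors, and the median of all peaks shifted by 0.57 in both. Lower peaks in CARM1 knockout tumors numbered 9 with DESeq2, 9 with RLE factors, 3 with at least 10 counts in every library, 2 by totals without large peaks and 8 with no fold minimum. In NFIB mutant tumors they numbered 3 with at least 10 counts, 4 by housekeeping start sites and 3 by totals without large peaks. The Ifngr1 peak in NFIB mutant tumors turned to 0.0165 by totals alone, by the construction of that scaling. Totals alone also moved the share of higher among called peaks from 54.4 to 65.9% and 53.6 to 64.3%, and among called genes from 52.9 to 39.4% and 48.7 to 35.8%, with a shift of -0.27 and -0.33 in the median of all genes, and DESeq2 shifted that median by -0.20 and -0.22. The longer ISRE core, with CT after it, was found in 24.3% of members and 0.303% of all genes. Replicate numbers were not used as pairs, since the deviations of same-numbered RNA-seq libraries correlated between -0.26 and 0.12. The fit with a replicate block gave 36 and 38 members with higher RNA, 21 and 25 higher peaks, and 24 and 24 of the further list. Under the replicate block Rsad2 (3.66, adjusted p = 0.120, and 3.48, adjusted p = 0.111) and Stat2 in NFIB mutant tumors (1.45, adjusted p = 0.112) were no longer called, and the cause was not tested. Stat2 was also lost by totals alone (1.13, adjusted p = 0.102). Depth limits the ligands, and the members with few counts in TKO.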
